A study of Mus musculus with 4 samples.

Results

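Fibrillar collagens and the proteins that fold and cross-link them were followed on arrays of left ventricular RNA from mice. The set comprised 10 named genes: Col1a1, Col1a2, Col3a1, Col5a1, Col5a2, Lox, Loxl1, Loxl2, Serpinh1 and P4hb. Every probe set whose platform annotation gave 1 of these symbols alone was taken, which found 18 probe sets of 9 genes among 22690 probe sets in all. The array carried Loxl2 only through a probe set annotated jointly to Gm21451 and Loxl2, which was therefore assigned to neither; its intensity lay between 5.0 and 6.3 on the 4 arrays. Of the 18 probe sets, 11 belonged to 5 fibrillar collagen genes, 4 to 2 genes of cross-linking enzymes and 3 to 2 genes of folding factors.

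The series asks what the cytokine IL-18 does to cardiac gene expression when pressure overload makes the ventricle hypertrophy. There was 1 array per group: IL-18 null banded (6 pooled hearts, transaortic constriction for 1 week), IL-18 null sham (5 pooled hearts), wild type banded and wild type sham. Banding places a constriction on the aorta so that the left ventricle pumps against raised pressure, and the sham group had the operation without it. Labels place the banded IL-18 null mice on a C57BL/6 background and call the sham IL-18 null mice knockout, and the design text gives 5 to 6 animals per group. The sources used here name neither the strain of the other pools nor, for wild type, the time on the band or the exact number pooled. With 1 pooled array per group, no difference between 2 arrays has a replicate error or a p-value.

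Fibrillar collagens form the tension-bearing fibres of the cardiac interstitium. Type I and type III chains make up most of the fibre, and type V chains help to start and limit its growth. Procollagen chains are hydroxylated and folded into a triple helix in the endoplasmic reticulum, where P4hb serves as the beta subunit of prolyl 4-hydroxylase and Serpinh1 (HSP47) is a collagen-specific chaperone. After secretion and trimming, lysyl oxidases such as Lox and Loxl1 oxidise lysine residues so that neighbouring molecules become covalently cross-linked. In the heart the fibrillar collagen genes are expressed mainly by fibroblasts, and more collagen in the pressure-loaded ventricle is a known feature of fibrosis.

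Promoters are shown for 2 collagen genes whose probe sets were all at least 2-fold higher with banding in IL-18 null hearts, Col1a2 and Col3a1, and for P4hb, which stayed within 2-fold there. RefSeq's promoter table for GRCm38.p6 matched 5 of the 10 genes by symbol: Col1a2, Col3a1, Col5a1, Serpinh1 and P4hb. Each sequence gives the 250 bases before the annotated start, 5′ to 3′ on the strand of the gene, and capitals mark the motif matches described after them.
Col1a2, chr6:4505368-4505617, plus strand: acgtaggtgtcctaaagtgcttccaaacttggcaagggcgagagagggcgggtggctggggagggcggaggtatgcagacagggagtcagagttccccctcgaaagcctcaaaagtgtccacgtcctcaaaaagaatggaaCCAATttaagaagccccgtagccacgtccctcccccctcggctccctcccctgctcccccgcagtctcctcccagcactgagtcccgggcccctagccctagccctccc
Col3a1, chr1:45311288-45311537, plus strand: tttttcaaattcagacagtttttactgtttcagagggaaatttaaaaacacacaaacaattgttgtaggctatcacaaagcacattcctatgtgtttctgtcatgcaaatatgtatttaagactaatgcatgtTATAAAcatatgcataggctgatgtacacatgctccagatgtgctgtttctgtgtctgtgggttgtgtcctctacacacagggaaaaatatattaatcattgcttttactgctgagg
P4hb, chr11:120573254-120573503, minus strand: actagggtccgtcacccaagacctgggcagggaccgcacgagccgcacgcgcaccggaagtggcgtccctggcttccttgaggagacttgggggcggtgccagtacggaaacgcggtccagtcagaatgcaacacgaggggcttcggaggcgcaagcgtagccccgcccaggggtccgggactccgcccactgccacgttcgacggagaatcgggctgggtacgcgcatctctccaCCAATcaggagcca

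A search on both strands covered the CCAAT box (CCAAT), the TATA box (TATAAA) and the core of the heat shock element (GAANNTTC). Col1a2 held 1 CCAAT box, 109 to 105 bases before its start. P4hb held 1 as well, 14 to 10 bases before its start, and 33.8% of 32851 windows of the same length held such a match. Col3a1 held the letters TATAAA 117 to 112 bases before its start, against 12.4% of all windows. All of these are matches of letters, and whether any acts as a promoter element was not tested. The windows of Col5a1 and Serpinh1 held none of the 3 motifs; the heat shock element core occurs in 6.69% of all windows. The GC content of the windows was 62.0% for Col1a2, 35.2% for Col3a1, 76.4% for Col5a1, 63.6% for Serpinh1 and 66.8% for P4hb, with a median of 52.4% over all windows. The windows of Col1a2 and Col3a1 thus shared none of the searched motifs, and their GC content lay on either side of that median. In the RefSeq gene order Col3a1 and Col5a2 are neighbours on chromosome 1, with 0 protein-coding genes between them.

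Values are intensities on a linear scale, computed by the authors with GCRMA, which corrects and summarises the probes of a probe set. Before differences were taken on the log2 scale, intensities below 64 (log2 6) were set to that floor, and a difference with 1 array below the floor is given as a bound. Of the 18 probe sets, 15 reached the floor on at least 1 array and 8 on all 4. The 3 that stayed below it everywhere were Col5a1 1416741_at and Lox 1448228_at and 1437903_at, at 4.1 to 13.3. Levels are compared within a probe set only.

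The arrays differed in how far signal was concentrated at the 3′ end of transcripts. The mean 3′ minus middle log2 signal over control probe sets of Gapdh, Actb and the bacterial spike dap was 3.01 ± 1.47 on IL-18 null banded, 3.37 ± 1.14 on IL-18 null sham, 0.72 ± 1.14 on wild type banded and 4.74 ± 0.14 on wild type sham (SD over 3 transcripts). The corresponding 3′ minus 5′ signal was 4.84 ± 2.20, 4.81 ± 1.64, 1.33 ± 0.97 and 4.81 ± 1.08 in the same order of arrays. Wild type banded was therefore the lowest array in both measures. Wild type sham was the highest in the first and level with the IL-18 null arrays in the second. The 3′ signal itself was lowest on wild type sham for all 3 transcripts. Gapdh had 2044.5 there against 10743.7 to 15321.5 on the other arrays, Actb 498.9 against 2262.5 to 7728.2, and dap 188.1 against 1646.6 to 1818.0. The 5′ intensities on wild type sham were 65.8, 8.9 and 14.8 in that order. Its 3′ minus 5′ value thus rested on 5′ signal near or below 64. For dap the 5′ signal was also below 64 on IL-18 null banded (11.1) and IL-18 null sham (21.4). The banding comparisons in the 2 genotypes share no array, but each array enters 2 comparisons. Wild type banded enters wild-type banding and the banded genotype comparison, and wild type sham enters wild-type banding and the sham genotype comparison. The part of 3′ signal in these 3 comparisons was not tested.

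**Figure D1:**
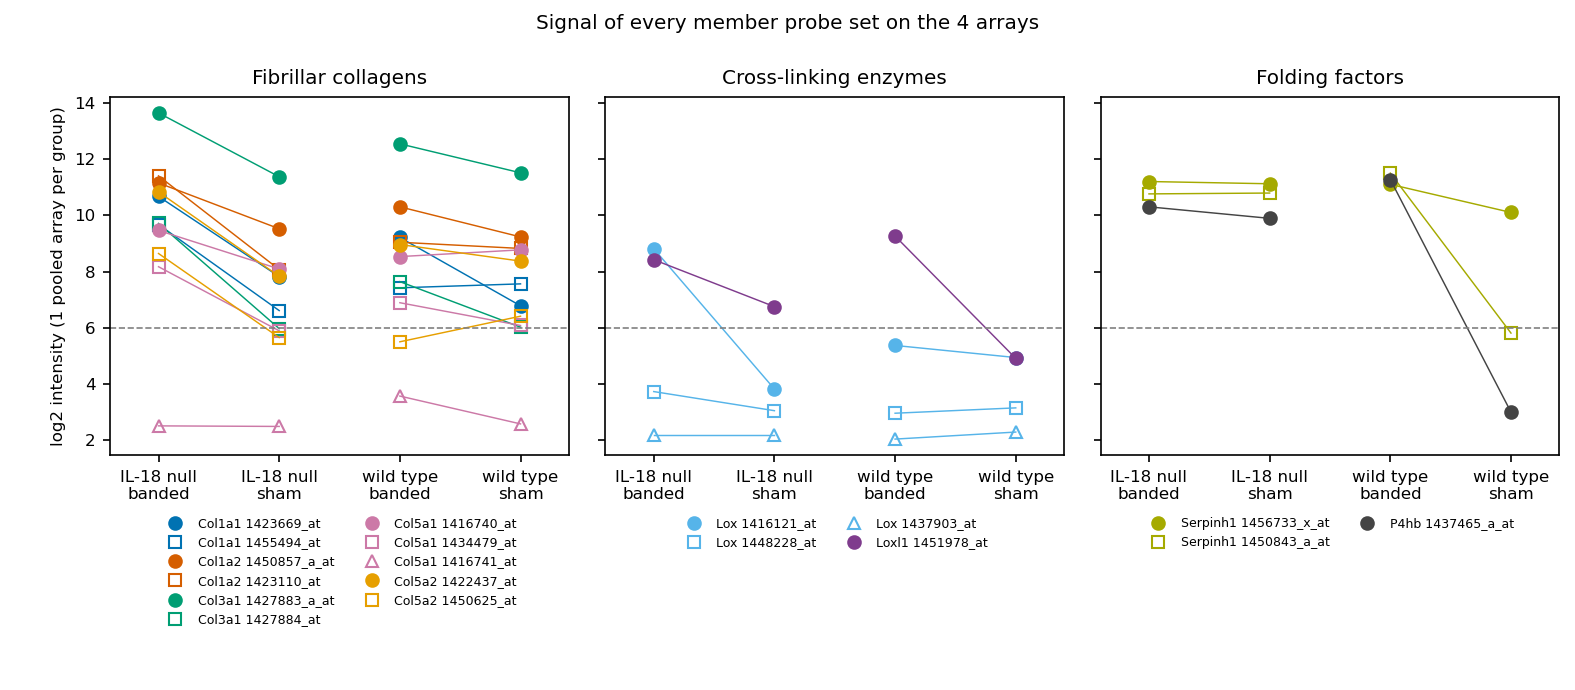
Log2 intensity of all 18 member probe sets on each array, in panels by role; thin lines join the arrays of a genotype and the dashed line is the floor at log2 6. The collagen probe sets above the floor are highest on IL-18 null banded, and the folding factors are low on wild type sham alone.

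In IL-18 null hearts, fibrillar collagen signal was higher on the banded array in every probe set that reached the floor, by 1.37 to at least 3.71 on the log2 scale. Across the members, 12 of 15 measured probe sets were at least 2-fold higher and 0 lower, where 6.64% of 6743 probe sets with 1 gene were 2-fold higher and 4.2% lower. The median difference was 2.27 in the members and 0.06 in all probe sets. A probe set measured on the banded array only had to be higher, so the count was repeated over those that reached the floor on each of the 2 arrays: 8 of 11 member probe sets were at least 2-fold higher, against 5.98% of 6120. The 10 measured collagen probe sets and both measured cross-linking probe sets made up the 12, and the 3 folding-factor probe sets stayed within 2-fold.

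In wild-type hearts the members divided differently. At least 2-fold higher on the banded array were 8 of 14 measured probe sets and 0 were lower, but 24.9% of 7200 probe sets were higher too, and 11.5% lower. The median was 1.02 in the members and -0.02 in all probe sets. Only 4 of 10 collagen probe sets were among the 8 (median 0.70), together with Loxl1 and all 3 folding-factor probe sets. Over probe sets that reached it on each of the 2 arrays, 5 of 10 members were at least 2-fold higher, against 18.8% of 5495. After quantile normalization the 8 became 5, since Col1a2 1450857_a_at (0.82), Col3a1 1427883_a_at (0.73) and Serpinh1 1456733_x_at (0.78) dropped below 2-fold. After cyclic loess they became 9, as Col5a1 1434479_at reached 1.02. Of all probe sets, 1439 of 7327 were 2-fold higher and 1674 lower after quantile normalization. After cyclic loess 2029 of 7290 were higher and 544 lower.

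**Figure D2:**
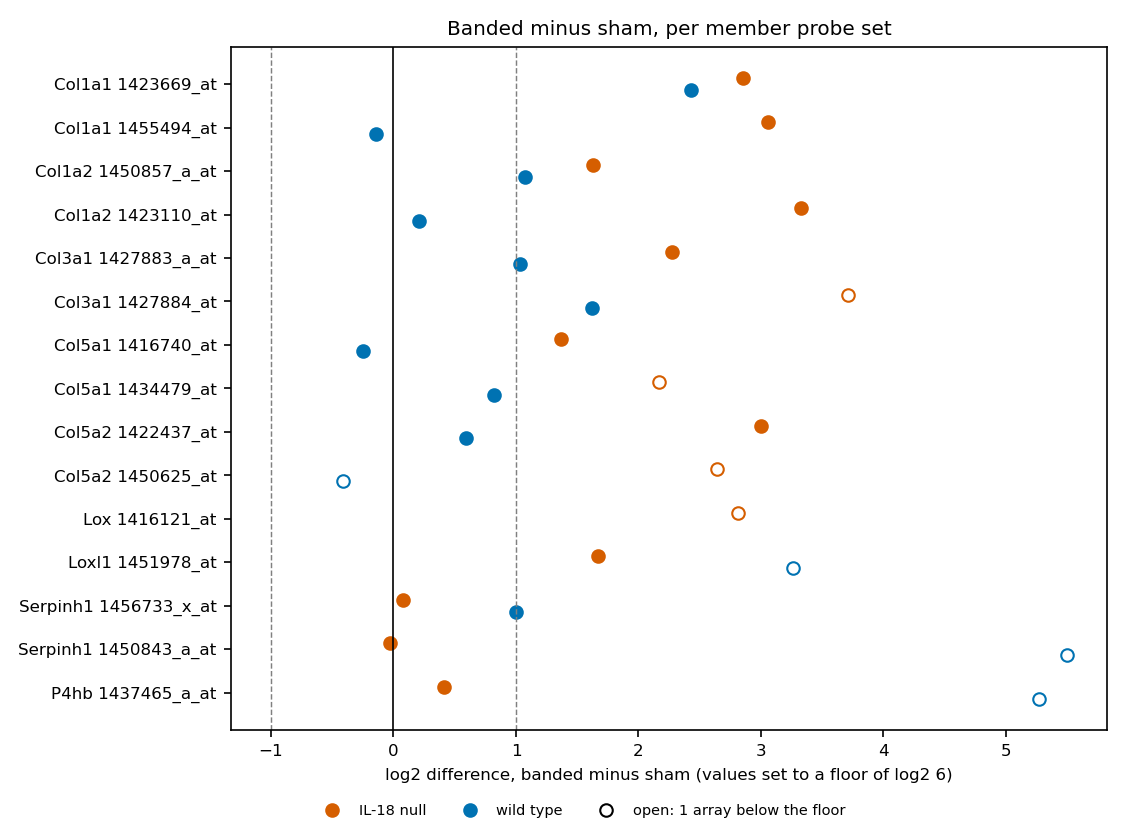
Banded minus sham difference (log2, with the floor) of the 15 measured probe sets in IL-18 null and wild type; dashed lines mark 2-fold and open symbols are bounds. The collagens lie between 1.37 and 3.71 in IL-18 null and between -0.41 and 2.43 in wild type, whereas Serpinh1 and P4hb lie near 0 in IL-18 null and at 1.00 to 5.50 in wild type.

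Col1a1 encodes the alpha1 chain of type I collagen, of which each molecule holds a pair. Its probe set 1423669_at had an intensity of 1632.9 on IL-18 null banded, 225.9 on IL-18 null sham, 591.0 on wild type banded and 109.7 on wild type sham. Both banded arrays were above both sham arrays, by 2.85 (log2) in IL-18 null and 2.43 in wild type. The other probe set, 1455494_at, had 814.0 on IL-18 null banded, 97.5 on IL-18 null sham, 171.0 on wild type banded and 188.5 on wild type sham. It repeated the IL-18 null difference (3.06) and not the wild-type one (-0.14). The probe sets of Col1a1 thus lay 0.21 apart in IL-18 null and 2.57 apart in wild type.

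Col1a2 encodes the alpha2 chain of type I collagen. Its probe set 1450857_a_at had 2274.4 on IL-18 null banded, 734.5 on IL-18 null sham, 1259.5 on wild type banded and 601.5 on wild type sham, with banding differences of 1.63 and 1.07 (log2) in IL-18 null and wild type. In 1423110_at the same arrays gave 2699.4, 267.8, 525.0 and 453.3, with differences of 3.33 and 0.21. The IL-18 null banded array was the highest in both probe sets, and the wild-type arrays were close together in the second.

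Col3a1, whose chains form the finer type III fibres, had intensities of 12737.3 on IL-18 null banded, 2639.7 on IL-18 null sham, 5960.1 on wild type banded and 2917.0 on wild type sham in 1427883_a_at. The sham arrays nearly coincided (-0.14 between genotypes, log2), and banding differences were 2.27 in IL-18 null and 1.03 in wild type. Its probe set 1427884_at had 838.8, 62.7, 199.3 and 64.7 in the same order of arrays, with differences of at least 3.71 in IL-18 null and 1.62 in wild type. Col3a1 was the only collagen gene here with every probe set at least 2-fold higher in both genotypes, which did not hold after quantile normalization. The 1.62 became 0.64 with the floor at log2 7.

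Type V collagen was represented by Col5a1 and Col5a2. Col5a1 1416740_at had 704.7 on IL-18 null banded, 272.4 on IL-18 null sham, 368.4 on wild type banded and 437.2 on wild type sham, so the banding difference was 1.37 (log2) in IL-18 null and -0.25 in wild type. Col5a1 1434479_at had 288.5, 59.5, 119.0 and 67.6 in the same order, with differences of at least 2.17 and of 0.82. For this gene the wild-type direction depended on the probe set.

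Col5a2 1422437_at had 1820.2 on IL-18 null banded, 227.5 on IL-18 null sham, 499.3 on wild type banded and 331.3 on wild type sham, an 8.0-fold difference with banding in IL-18 null and a 1.51-fold one in wild type. Col5a2 1450625_at had 399.3, 50.1, 45.1 and 85.1 in that order and was above the floor on IL-18 null banded and wild type sham. Its banding difference was at least 2.64 (log2) in IL-18 null and, as a bound, -0.41 in wild type. Neither Col5a2 probe set was 2-fold higher with banding in wild type.

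Of the cross-linking enzymes, Lox, the founding lysyl oxidase, reached the floor in 1 probe set and on 1 array. Lox 1416121_at had 448.4 on IL-18 null banded, 14.1 on IL-18 null sham, 41.4 on wild type banded and 30.7 on wild type sham. The IL-18 null banded array was at least 2.81 (log2) above each of the 3 others. The other Lox probe sets did not share this: 1448228_at had 13.3, 8.3, 7.8 and 8.9, and 1437903_at had 4.6, 4.6, 4.1 and 4.9, all below the floor.

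Loxl1, a lysyl oxidase known for its role in elastic fibre maintenance, had 342.6 on IL-18 null banded, 107.7 on IL-18 null sham, 613.5 on wild type banded and 30.1 on wild type sham. Both banded arrays were above both sham arrays, by 1.67 (log2) in IL-18 null and at least 3.26 in wild type. Unlike every measured collagen probe set, Loxl1 was higher on wild type banded than on IL-18 null banded.

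The folding factors varied with 1 array. P4hb, which besides prolyl hydroxylation works as protein disulfide isomerase in most secretory cells, had 1260.8 on IL-18 null banded, 951.0 on IL-18 null sham, 2475.9 on wild type banded and 8.0 on wild type sham. The 3 other arrays lay within 1.38 (log2) of each other, and wild type sham was below the floor. The banding difference was 0.41 in IL-18 null and at least 5.27 in wild type.

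Serpinh1 1450843_a_at had 1735.7 on IL-18 null banded, 1773.8 on IL-18 null sham, 2904.3 on wild type banded and 56.1 on wild type sham. Its banding difference was -0.03 in IL-18 null and at least 5.50 in wild type. Serpinh1 1456733_x_at had 2350.0, 2230.4, 2190.3 and 1094.9 in that order, with differences of 0.08 and 1.00. The 2 probe sets agreed within 0.11 in IL-18 null and lay 4.50 apart in wild type, so the size of the Serpinh1 difference in wild type was not settled by these arrays.

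Over the 6 genes with more than 1 probe set measured in both arms, the probe sets of a gene lay a median of 0.58 (log2) apart in IL-18 null banding, with a range of 0.11 to 1.70. In wild-type banding the median was 1.03 and the range 0.59 to 4.50. Both medians are descriptions of these arrays.

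At least 2-fold higher with banding in both genotypes were 5 of the 14 member probe sets measured in both, against 1.64% of 6577 probe sets. These 5 were Col1a1 1423669_at, Col1a2 1450857_a_at, both Col3a1 probe sets and Loxl1, and they belonged to 4 genes. After quantile normalization 3 of them were left, without Col1a2 1450857_a_at and Col3a1 1427883_a_at; with the floor at log2 7 there were 4, without Col3a1 1427884_at, and after cyclic loess 6, with Col5a1 1434479_at added. Another view of wild-type banding leaves out the wild type sham array and sets wild type banded against IL-18 null sham, a comparison chosen after the data were seen, in which surgery and genotype cannot be told apart. There 6 of 13 member probe sets were at least 2-fold higher and 0 lower, against 9.06% and 1.32% of 6908. The 6 were Col1a1 1423669_at (1.39), Col3a1 1427883_a_at (1.17) and 1427884_at (at least 1.64), Col5a2 1422437_at (1.13), Loxl1 (2.51) and P4hb (1.38). The 9 collagen probe sets ranged from 0.44 to 1.64, all above 0, and Serpinh1 lay at -0.03 and 0.71.

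Between the banded hearts, IL-18 null had more fibrillar collagen signal than wild type in all 10 measured collagen probe sets, by 0.85 to at least 2.64 (log2), and 8 of the 10 were at least 2-fold higher. After cyclic loess Col3a1 1427883_a_at (0.90) left the 8, and after quantile normalization Col5a1 1416740_at (1.01) joined them. Over the members, 9 of 15 were at least 2-fold higher and 0 lower, where 5.11% of 7039 probe sets were higher and 10.9% lower. Where each of the 2 arrays reached the floor, 7 of 13 members were higher, against 4.66% of 6110. With 1 probe set per gene 4 of 9 members were higher and 0 lower, against 5.7% and 7.74% of 4947 genes. The median was 1.28 in the members and 0.06 in all probe sets. The largest collagen differences were at least 2.64 for Col5a2 1450625_at, 2.36 for Col1a2 1423110_at and 2.25 for Col1a1 1455494_at. Lox was at least 2.81 higher. Loxl1 (-0.84), P4hb (-0.97) and Serpinh1 1450843_a_at (-0.74) were on the other side, each within 2-fold; P4hb reached -1.15 after cyclic loess. At 1.5-fold 11 of 15 members were higher and 3 lower, against 15.8% and 18.4% of all probe sets. Since the banding time of the wild-type pool was not given, genotype and time on the band cannot be told apart here. The 2 arrays also differed in 3′ minus middle signal (3.01 and 0.72), whose part was not tested.

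Between the sham hearts the collagen probe sets lay on both sides of 0. Of 10 measured collagen probe sets, 1 was at least 2-fold above wild type in the IL-18 null array and 0 were as far below, with 2 above 0 and 8 below it and a median of -0.28 (log2). The 1 was Col1a1 1423669_at (1.04, and 0.68 after quantile normalization), whose other probe set lay at -0.95, and at -1.27 after quantile normalization. Under that setting 0 collagen probe sets were thus 2-fold higher and 1 lower, where 1069 of 7054 probe sets were higher and 855 lower. Among the 8 below 0, the values of Col3a1 1427884_at (-0.02), Col5a1 1434479_at (-0.08) and Col5a2 1450625_at (-0.41) were bounds, and Col3a1 1427883_a_at lay at -0.14. Of all 6797 measured probe sets with 1 gene, 3640 lay below 0. After cyclic loess Col3a1 1427884_at stood at 0.01. Over the members, 4 of 14 were at least 2-fold higher, where 18.4% of 6797 probe sets were higher and 6.02% lower. The other 3 were P4hb (at least 3.89) and Serpinh1 (at least 4.79, and 1.03), which again set the low wild type sham array against another. At 1.5-fold 5 members were higher and 3 lower, against 26.4% and 20.5% of all probe sets.

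**Figure D3:**
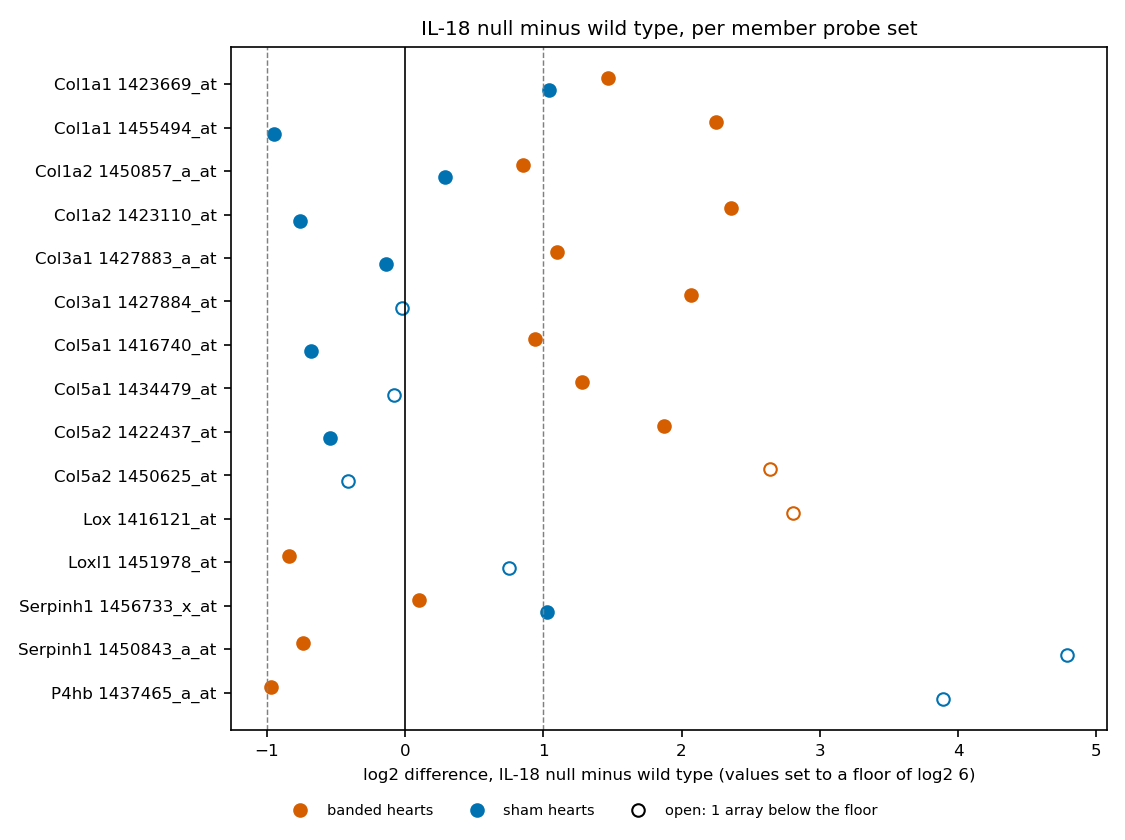
IL-18 null minus wild type difference (log2, with the floor) of the 15 measured probe sets in banded and sham hearts; dashed lines mark 2-fold and open symbols are bounds. In banded hearts the 10 collagen probe sets lie at 0.85 or above, and in sham hearts they lie between -0.95 and 1.04.

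The banding difference in IL-18 null minus that in wild type was at least 1 (log2) in 9 of 15 member probe sets and at most -1 in 3. Over all probe sets the shares were 18.8% and 24.9% of 7366. The 9 were Lox and 8 collagen probe sets, led by Col1a1 1455494_at (3.20), Col1a2 1423110_at (3.12) and Col5a2 1450625_at (3.05). The 3 at most -1 were Loxl1 (-1.59), P4hb (-4.87) and Serpinh1 1450843_a_at (-5.54), each with wild type sham below the floor. Col1a1 1423669_at (0.42) and Col1a2 1450857_a_at (0.56) differed little between genotypes.

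An additive model of surgery and genotype gives the only error available, because it takes the disagreement between genotypes as noise and has 1 residual degree of freedom. By limma's moderated test on unfloored log2 values, the banding term was above 0 in all 15 measured member probe sets. The genotype term was above 0 in all 15 as well. The share of all probe sets above 0 was not counted for either term. The largest banding terms among the collagens were 2.68 ± 0.78 for Col3a1 1427884_at and 2.64 ± 0.61 for Col1a1 1423669_at (estimate ± SE). None passed Benjamini-Hochberg adjustment over 7366 probe sets (adjusted p = 1.0 by limma for each), and 0 of all probe sets did. Without adjustment, at the 0.05 level, 1.33% of probe sets had a higher banding term and 0.109% a lower one. Among them were 4 member probe sets, all higher: Col1a1 1423669_at, both of Col3a1, and Loxl1. The genotype term passed adjustment in 0 of all probe sets. Without adjustment 0.109% were higher and 0.0815% lower, and 0 of these were members. The outcome depended on the filter: fitted over all 20380 probe sets with 1 gene, the banding term passed adjustment in 4 members, where 1.2% of all did, and the genotype term in 1, where 0.451% did. After quantile normalization 1 member passed for banding (0.869% of all) and 0 for genotype (0.122% of all).

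Among other genes of collagen maturation, Pcolce, Ppib and Tgm2 passed 2-fold upwards with banding in IL-18 null. In these gene lists each gene stands by its brightest probe set. Of 28 listed genes for collagen processing and cross-linking, 20 were on the array; with banding in IL-18 null 3 of 12 measured passed 2-fold upwards and 0 downwards (median 0.45), where 6.98% of 4827 genes were higher and 2.53% lower. In wild type 5 of 14 were higher and 0 lower (median 0.71), where 21.7% of 5040 genes were higher and 12.8% lower. These shares over all genes are also the background of the list counts that follow. For the members themselves, with 1 probe set per gene, 7 of 9 were higher in IL-18 null and 6 of 8 in wild type, with 0 lower in either. Pcolce, which enhances the trimming of procollagen, had 1869.1 on IL-18 null banded, 572.3 on IL-18 null sham, 1234.7 on wild type banded and 743.6 on wild type sham, with differences of 1.71 and 0.73 (log2).

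Ppib, a prolyl isomerase that works on procollagen, differed by 1.38 (log2) with banding in IL-18 null and 0.45 in wild type, and the transglutaminase Tgm2 by 1.21 and 0.83. P4ha2, a catalytic alpha subunit that pairs with P4hb, differed by 0.46 and 2.25, and Crtap, a partner in prolyl 3-hydroxylation, by 0.29 and 1.30. Colgalt1, which glycosylates hydroxylysine, differed by 0.65 and 0.69. P4ha2 and Crtap thus resembled P4hb in being close to 0 in IL-18 null and higher in wild type, with wild type sham the lowest array for both (97.4 for P4ha2 and 177.8 for Crtap).

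Among 6 other fibrillar collagen genes, 4 were on the array and only Col5a3, the alpha3 chain of type V collagen, reached the floor. It had 230.2 on IL-18 null banded, 75.4 on IL-18 null sham, 96.4 on wild type banded and 62.3 on wild type sham, with banding differences of 1.61 and at least 0.59 (log2). Its order over the arrays was that of Col1a1 1423669_at. Of 14 fibril organisers, 13 were on the array, and with banding in IL-18 null 4 of 12 measured passed 2-fold upwards and 0 downwards (median 0.80), while in wild type 5 of 11 were higher and 1 lower (median 0.71).

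Fn1, fibronectin, on which collagen fibrils assemble, differed by 3.78 (log2) in IL-18 null and at least 1.15 in wild type. Postn, periostin, a matricellular protein that promotes cross-linking, differed by 3.37 and 1.23. Aspn, a small leucine-rich proteoglycan, differed by 2.15 and -0.84. Dcn, decorin, which binds fibrils and limits their width, differed by 0.28 and 2.96. Tnxb differed by -0.33 and 2.65, and Thbs2 by 0.02 and -1.60.

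Of 8 genes of collagen breakdown and uptake, 3 were measured with banding in IL-18 null and 2 in wild type. The gelatinase gene Mmp2 was higher by 1.92 (log2) in IL-18 null and at least 2.50 in wild type, and the collagen uptake receptor gene Mrc2 by 0.68 and 0.20. Of 12 genes of profibrotic signalling, 11 were on the array and 7 measured. In IL-18 null 2 of 7 passed 2-fold upwards and 0 downwards (median 0.25), and in wild type 0 of 7 in either direction (median -0.19).

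The 2 were Ccn2, a matricellular target of TGF-beta, which differed by 3.01 in IL-18 null and 0.78 in wild type, and Skil, a feedback inhibitor of SMAD signalling, which differed by 1.27 and -0.54. Of the receptors, Tgfbr1 differed by 0.07 and -0.81, the lowest wild-type value of this list, and Tgfbr2 by 0.25 and 0.09. Smad7 differed by -0.17 and -0.60, and Smad4 by 0.28 and -0.19. Tgfb1, Tgfb2 and Tgfb3, the ligands, were below the floor on every array.

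Markers of the cell types that could hold these transcripts were read beside the collagens. In tissue RNA, more cells of a type and more RNA per cell cannot be told apart. Of 10 fibroblast markers, 6 were measured with banding in IL-18 null, of which 2 passed 2-fold upwards and 0 downwards (median 0.40), and in wild type 4 of 7 were higher and 0 lower (median 2.34). Their summed intensity was 14091.6 on IL-18 null banded, 10102.3 on IL-18 null sham, 17067.6 on wild type banded and 6397.1 on wild type sham. Dcn alone gave 7040.9, 5804.8, 10343.6 and 1330.4 of these sums in the same order of arrays. That wild type banded had the highest sum therefore rested on Dcn and is no statement about the markers as a group. Pdgfra, a defining fibroblast receptor, was lower on both banded arrays, with differences of -0.84 (log2) in IL-18 null and -0.61 in wild type. Tcf21, Ddr2 and Thy1 were below the floor on every array.

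Dpt differed by 0.43 and -0.35, Lum by 1.06 and 0.71, Islr by 0.38 and 2.86, and Mfap5 by 2.29 and 2.84. Their part in the collagen differences was not tested. Of 8 smooth muscle, pericyte and myofibroblast markers, in each genotype 2 of 5 measured passed 2-fold upwards and 0 downwards (medians 0.33 and 0.05). Acta2, which marks smooth muscle and myofibroblasts, differed by 0.33 and -0.33, Tagln by 1.26 and at least 2.32, and Pdgfrb by 1.02 and -0.80. Rgs5, a pericyte marker, differed by -0.32 and 0.05, and Notch3 by 0.32 and 1.60. The summed intensity of this list was 10031.6, 10502.5, 11894.0 and 12194.2 on IL-18 null banded, IL-18 null sham, wild type banded and wild type sham. Rgs5 alone gave 6502.3, 8115.1, 8371.2 and 8081.6 of these sums, which are therefore no statement about the markers as a group.

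Macrophage markers were higher in 3 of 7 measured with banding in IL-18 null (median 0.93) and in 4 of 7 in wild type (median 1.10), with 0 lower in either. Their summed intensity was 8612.8 on IL-18 null banded, 3989.4 on IL-18 null sham, 6535.4 on wild type banded and 4184.0 on wild type sham. Csf1r and Mrc1 (-0.67 each) and Adgre1 (-0.30) were nevertheless lower on the banded array in wild type. Endothelial markers had 0 of 6 at least 2-fold apart in IL-18 null (median -0.24) and 4 of 8 higher in wild type (median 1.09), with summed intensities of 2905.8, 3787.0, 4370.1 and 2601.9. All 10 cardiac myocyte markers were within 2-fold in IL-18 null (median -0.05), and 1 of 10, Ttn (1.05), was higher in wild type (median 0.32); their summed intensity ranged from 188945.6 to 235049.8, highest on wild type banded. The 5 mesothelial markers on the array were below the floor throughout. The part of these cell types in the collagen differences was not tested.

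The genes whose pattern over the 4 arrays was nearest to the mean of Col1a1, Col1a2 and Col3a1 were found by the root mean square distance of log2 values, each centred on the gene's own mean, among 3985 other genes at or above the floor on all 4 arrays. The collagen profile stood at 1.51 on IL-18 null banded, -0.74 on IL-18 null sham, 0.37 on wild type banded and -1.14 on wild type sham. Nearest was Fstl1, a secreted follistatin-like glycoprotein, at a distance of 0.142, with intensities of 3726.2, 649.1, 1842.4 and 579.2 in that order of arrays. C1qb, a chain of complement C1q made by macrophages, followed at 0.182, and Nppa, atrial natriuretic peptide, at 0.245. Fxyd5 (0.254), Rhoc (0.275) and Col6a1, a chain of type VI collagen (0.275), completed the 6. By the same measure the genes of the profile themselves lay at 0.223 (Col3a1), 0.287 (Col1a2) and 0.459 (Col1a1). Col5a2 lay at 0.422, while Col5a1 at 0.765 and Serpinh1 at 0.797 lay farther from the profile. Each gene stood by its brightest probe set. The other probe sets of Col1a1 (97.5 on IL-18 null sham, 188.5 on wild type sham) and Col1a2 (267.8 and 453.3) had the sham arrays in the reverse order. With 4 arrays, such likeness is a description only.

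**Figure D4:**
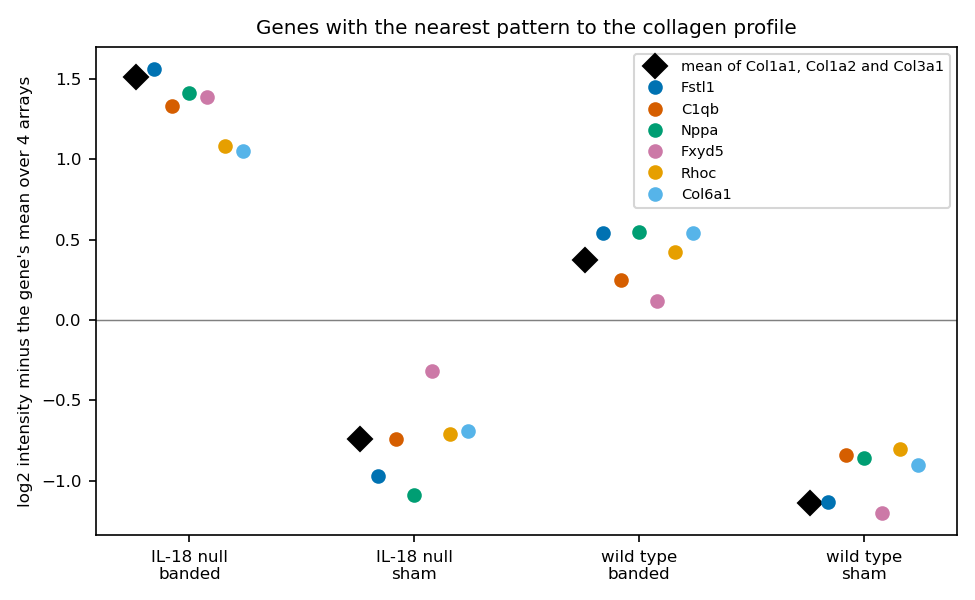
Log2 intensity minus each gene's mean over the 4 arrays, for the mean of Col1a1, Col1a2 and Col3a1 (diamonds) and the 6 nearest other genes (circles). All 7 are highest on IL-18 null banded and above 0 on wild type banded, and below 0 on both sham arrays.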

How the data were processed

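Left ventricular RNA was hybridised with biotin label to 4 arrays, 1 pool per group, and groups were taken from the sample titles. The deposited intensity values are on a linear scale from 1.5 to 43811.1 and were made by the authors with GCRMA, as the submitters' processing notes name it. Its version and settings, and whether values were centred or scaled afterwards, are unknown here; the linear scale was read from the values. Column medians were 11.6 on IL-18 null banded, 11.6 on IL-18 null sham, 11.3 on wild type banded and 13.7 on wild type sham. Precision is limited by there being 4 arrays; scanner output was not used here.

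Of 22690 probe sets, 20380 had 1 gene, 691 several, 1555 none and 64 were controls; only the first entered comparisons. Symbols were matched to RefSeq (GRCm38.p6) by gene identifier for 20351, and 0 changed. Intensities were log2-transformed, with a floor at log2 6, and counted at 2-fold with no test. limma 3.58.1 (R 4.3.3, lmFit and eBayes with trend) fitted surgery and genotype over 7366 probe sets reaching the floor on at least 1 array. Both procedures were tested on simulated data. The simulated arrays shared the same noise level, taken from the IL-18 null pair, and the added changes were equal in both genotypes. How the procedures behave where arrays differ in quality was not tested. Named genes were all members, up to 6 per list with the largest banding difference (no bounds), and the 6 nearest in pattern; Tcf21, Ddr2, Thy1 and the TGF-beta ligands fall outside this rule and were named after their values were seen. Members, lists and tests were chosen with earlier results of these data known. Other settings tried were cyclic loess, quantile normalization, a floor of log2 5 or 7 or none, 1 probe set per gene and a 1.5-fold threshold. Another left out probe sets with _s_, _x_ or _a_ in their names. For limma they were no trend, floored values, quantile normalization, no filter and an adjusted p of 0.1.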

Additional observations from a re-analysis of the deposited data

Results flagged for a closer look

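In 4 member probe sets the banding difference had opposite signs in the 2 genotypes and differed by at least 1 (log2). With 1 array per group this difference was not tested. Col1a1 1455494_at was 3.06 in IL-18 null and -0.14 in wild type, a difference of 3.20; after cyclic loess its wild-type value was 0.06. Col5a2 1450625_at was at least 2.64 and, as a bound, -0.41, a difference of 3.05 with the floor. Col5a1 1416740_at was 1.37 and -0.25, a difference of 1.62. Serpinh1 1450843_a_at ran the other way, at -0.03 and at least 5.50, a difference of -5.54. The other probe set of each gene did not have opposite signs in the genotypes: Col1a1 1423669_at was 2.85 and 2.43, Col5a2 1422437_at 3.0 and 0.59, Col5a1 1434479_at at least 2.17 and 0.82, and Serpinh1 1456733_x_at 0.08 and 1.00.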

How the results depend on the processing

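Of 79 alternative values of the member counts, medians and fits, 64 stayed within 1.5 times (counts) or 1.5-fold (log2 values) of the reported one. A further 15 moved beyond that and 0 were labelled reversed. Changes of sign were among the 64. The median between sham hearts, -0.05 as reported, was 0.07 with the floor at log2 7 and 0.01 after cyclic loess. With 1 probe set per gene it was 0.52. The sham count, 4 higher and 0 lower as reported, became 2 higher and 1 lower after quantile normalization. Of 283 alternative differences of single probe sets, 258 stayed, 25 moved and 0 of those at least 2-fold apart reversed. With the floor at log2 7 the median of IL-18 null banding was 1.64. After quantile normalization 5 members were at least 2-fold apart in wild-type banding, all higher, where 1439 of 7327 probe sets were higher and 1674 lower. With 1 probe set per gene, 7 of 9 members were apart in IL-18 null banding (median 1.67) and 4 of 9 between banded hearts (all higher, against 6.98% and 5.7% of all genes), and the median difference of banding differences was 0.56, against 1.36 as reported. Without probe sets whose names carry _s_, _x_ or _a_, 3 of 9 were apart in wild-type banding and 1 of 9 between sham hearts, all higher. This leaves fewer to count, as it took out Col1a2 1450857_a_at, Col3a1 1427883_a_at, both measured Serpinh1 probe sets and P4hb. No share over all probe sets was counted under this setting. In the main setting 24.9% of all were higher in wild-type banding and 18.4% between sham hearts. Without the probe sets carrying _s_, _x_ or _a_ the median was 1.97 between banded hearts and 2.25 for the difference of banding differences. At 1.5-fold, 14 of 15 were apart between banded hearts (11 higher and 3 lower) and 8 of 14 between sham hearts (5 higher and 3 lower). limma's banding term passed in 1 member after quantile normalization (P4hb, adjusted p = 0.000447) and in 4 with no filter (Col3a1 1427883_a_at, P4hb, Serpinh1 1450843_a_at and Loxl1, adjusted p from 3.82e-05 to 0.0402). The genotype term passed in 1 with no filter (P4hb, adjusted p = 0.0433). These fits used values without the floor. Before normalization the P4hb banding difference was then 0.41 in IL-18 null and 8.27 in wild type, with 8.0 on wild type sham. Serpinh1 1450843_a_at had -0.03 and 5.69, with 56.1 on that array, and Loxl1 1.67 and 4.35, with 30.1. For Col3a1 1427883_a_at the differences were 2.27 and 1.03, with 2917.0 on wild type sham. Where no construction is named, the cause was not tested. Scaling moved the median of all probe sets in wild-type banding from -0.02 to -0.34 by quantile normalization and to 0.16 by cyclic loess. It moved the share of higher among 2-fold calls from 68.4% to 46.2% and 78.9% there, from 61.3% to 50.9% by quantile normalization in IL-18 null banding, from 31.9% to 20.9% by cyclic loess between banded hearts, and from 75.3% to 55.6% by quantile normalization between sham hearts. Between sham hearts quantile normalization moved the median from -0.05 to -0.26. Depth has no counterpart on these arrays; signal below 64 leaves bounds for Lox, Loxl1, P4hb and 1 probe set each of Col3a1, Col5a1, Col5a2 and Serpinh1. No paired analysis was possible because each group has 1 array.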
